A study of Mus musculus with 12 samples.

Results

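The genes described here are 33 genes of glycolysis and of the response to low oxygen, read in bulk RNA sequencing of mouse mammary tumors under 4 treatments. A row of the deposited table belonged to the set when the symbol in its gene identifier was one of the 33 listed symbols. This gave 34 rows of 55401, since Aldoa has 2 rows, and all 34 passed the filter on low values (15504 genes passed in all). The tumors were orthotopic grafts in Balb/c mice of 4T1, a mammary carcinoma line of the same strain. The 4 groups received a control IgG, IL-10-Fc (interleukin-10 joined to an antibody Fc part), aCSF1R (an antibody that blocks CSF1R, a growth factor receptor on which macrophages depend) or BF10 (the same kind of antibody with interleukin-10 attached). Each group held 3 tumors with 1 library each. According to the sample records, dosing began at a tumor size of 100 mm3 and ran to 6 doses, whereas the submitters' overall design text and the methods of the study give fewer, so the number of doses is uncertain. The age of these mice is not given in the sample records. All tumors came from 1 cell line, and nothing in the sample records ties tumors of different groups to a shared litter or day.

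Glycolysis splits glucose into pyruvate in the cytosol and yields a small amount of ATP without oxygen, and lactate dehydrogenase turns the pyruvate into lactate so that the pathway can go on. Cells short of oxygen stabilize hypoxia-inducible factors, of which Hif1a encodes an oxygen-regulated subunit. These factors bind short DNA elements and raise the transcription of glucose transporters, most glycolytic enzymes and genes for pH control, blood vessel growth, collagen modification and mitochondrial turnover. Solid tumors, 4T1 tumors among them, hold poorly perfused regions, and many carcinoma cells and activated macrophages and neutrophils run glycolysis at a high rate also with oxygen present.

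The core of the element bound by hypoxia-inducible factors is ACGTG, and the promoters of some members show it. The RefSeq promoter table (build GRCm38.p6) held 47 promoters for 32 of the 33 symbols, and Ndrg1 had no entry. In the 250 bases before the start, ACGTG or its reverse complement CACGT was found in 21 of the 47 promoters (44.7%), against 5444 of all 32851 promoters (16.6%). Counted by gene, 18 of 32 members (56.2%) had a match in any promoter, against 4998 of 27025 genes (18.5%). The list was drawn up to hold known hypoxia targets, so the higher share describes the list and is no test. The palindrome CACGTG, which other factors also bind, contains a match on both strands and was counted as 2. The following stretches of 30 bases are shown because they belong to the main glucose transporter (Slc2a1), the member with the smallest p in a treatment comparison without library set (Slc16a3), 2 enzymes at opposite ends of the pathway (Hk2 and Ldha) and 2 classical hypoxia targets (Car9 and Bnip3). They lie at chr4:119108696-119108725 (Slc2a1, plus strand), chr11:120949037-120949066 (Slc16a3, plus), chr6:82774490-82774519 (Hk2, minus), chr7:46845757-46845786 (Ldha, plus), chr4:43506995-43507024 (Car9, plus) and chr7:138909597-138909626 (Bnip3, minus). Each is written 5′ to 3′ on the transcribed strand around the match nearest the start, with the matches in capitals (Ldha and the other genes with several promoters by the promoter with most matches):
Slc2a1: agtcccgccccggACGTGctccccaggccc
Slc16a3: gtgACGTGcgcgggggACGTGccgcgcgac
Hk2: caatgagcacatcCACGTcactgtccgggg
Ldha: ACGTGggttcccgCACGTccgctgggctcc
Car9: cctatttccgatgCACGTacagcccgtcca
Bnip3: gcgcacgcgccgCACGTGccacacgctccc
A match is a description of these letters and not a measured binding site. The matches stood 36 bases before the start in Slc2a1, 14 in Slc16a3, 52 in Hk2, 34 in Ldha, 18 in Car9 and 107 in Bnip3.

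The deposited values were FPKM, fragments scaled by transcript length and by the mapped fragments of the library. They were rescaled to TPM, the same sum in every library, on which levels of different genes can be compared because they are per length. Before rescaling, the FPKM sums fell into 2 sets that did not follow the treatments. In 7 libraries (control replicate 5, IL-10-Fc replicates 2 and 4, aCSF1R replicates 4 and 6, BF10 replicates 3 and 7) the sum lay between 609695 and 648413, and in the other 5 (control replicates 4 and 7, IL-10-Fc replicate 7, aCSF1R replicate 8, BF10 replicate 6) between 782919 and 921581. They are called lower-sum and higher-sum libraries below. These sets were known from earlier results of these data and are no treatment groups, and control had 2 higher-sum libraries where the other groups had 1. The depth estimated from the step of 1 read ran from 0.907 to 1.07 of the median library, and 23012 to 25299 genes had a value above 0. Carcinoma epithelium markers (10 of 10 passed the filter) summed to 775 to 2678 TPM and skeletal muscle markers (2 of 8 passed) to 6.84 to 65.8 TPM, and no gene of either list was at 0 in all libraries. In these bulk samples, fewer cells of a type and less RNA per cell cannot be told apart.

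The 34 members together held 0.960% to 1.39% of all TPM in the lower-sum libraries and 0.532% to 0.889% in the higher-sum libraries, so the share did not overlap between the sets. The highest share was in aCSF1R replicate 4 and the lowest in aCSF1R replicate 8. Replicate 4 of aCSF1R was the highest of the 12 libraries for 20 of the 34 members, and replicate 8 the lowest for 21.

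**Figure D1:**
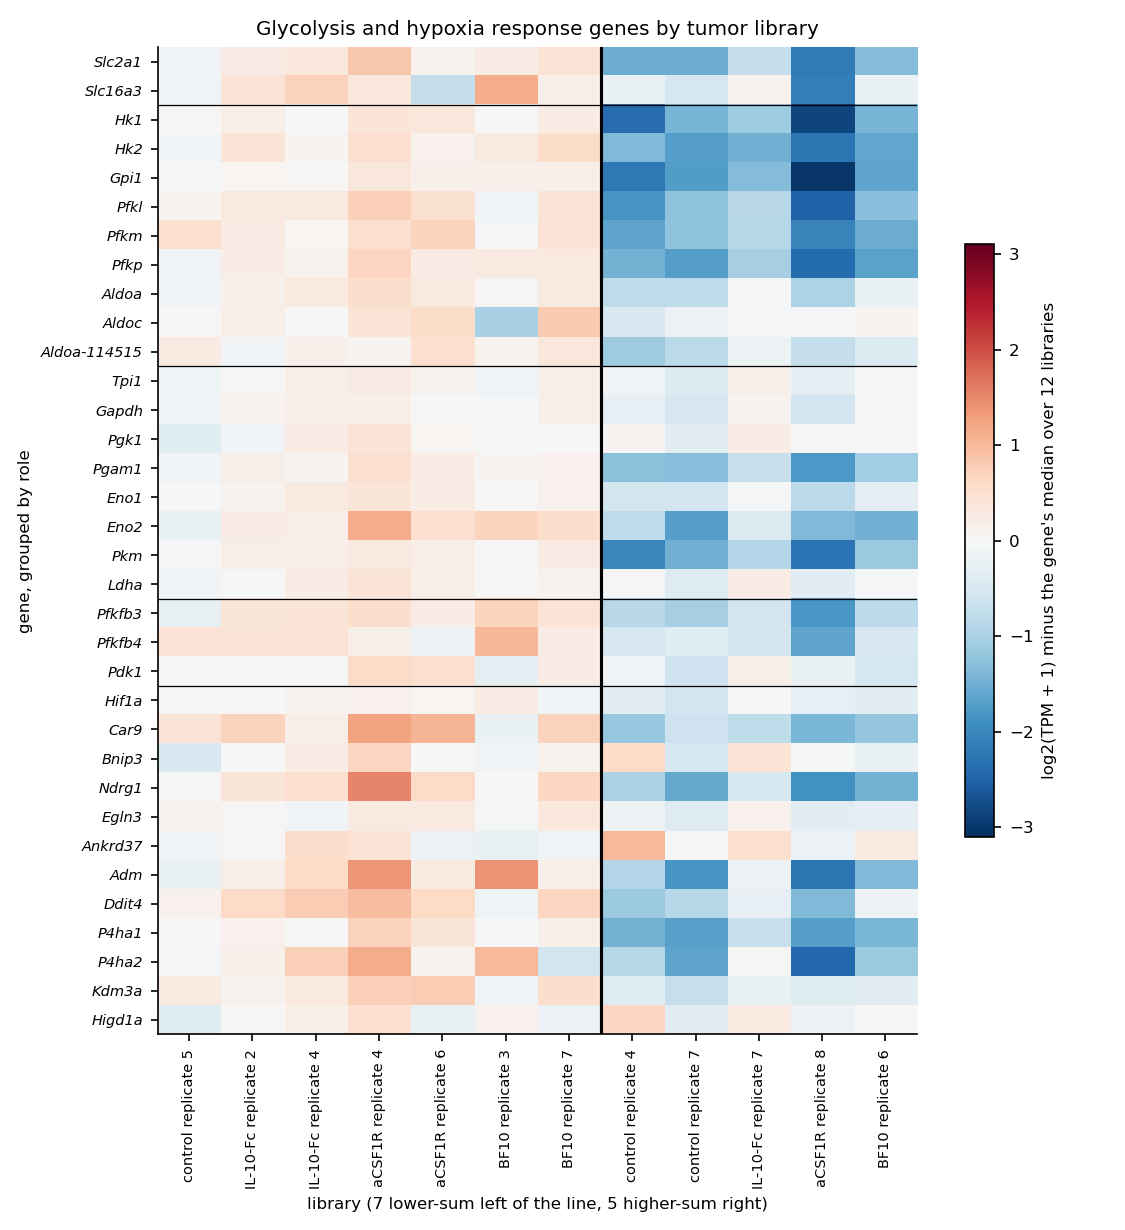
Heat map of the 34 members (rows, grouped by role) in 12 tumor libraries (columns), with color giving log2(TPM + 1) minus the median of the gene over the libraries. Most rows are lower (blue) in the 5 higher-sum libraries on the right, whereas Pgk1, Bnip3, Ankrd37 and Higd1a are not.

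The first comparison asked whether any treatment changed these genes against control IgG. In the limma fit over all groups, 0 of 34 members passed in any of the 3 comparisons, where passing meant a Benjamini-Hochberg adjusted p below 0.05 over all 15504 genes and a change of at least 1.5-fold. The share of all genes that passed was 0% (BF10), 0.00645% (IL-10-Fc) and 0.568% (aCSF1R), so a count of 0 among 34 stands near this background. The number of members with an unadjusted p below 0.05 was 0 in each of these 3 comparisons. Among all genes the share was 1.51% (BF10), 1.44% (IL-10-Fc) and 3.46% (aCSF1R). Estimates lay above control for 33 of 34 members in BF10 (median log2 difference 0.58), for 34 of 34 in IL-10-Fc (0.65) and for 31 of 34 in aCSF1R (0.51). All genes tested shifted the same way on this scale, with medians of 0.32, 0.35 and 0.24, and the median margin of the 95% confidence interval of a member was 1.25. With TPM scaled by the median of ratios, which brings the median of all genes to 0.034 or less in these comparisons, the member medians were 0.22, 0.25 and 0.28. The differences did not exceed the spread between tumors of a group in this test. The width of the interval varied between members, and in BF10 against control it ran from -0.20 to 0.67 for Tpi1 and from -1.14 to 2.92 for Gpi1.

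The comparisons between treatments gave the same count. Of the 34 members, 0 passed in limma for BF10 against IL-10-Fc, BF10 against aCSF1R and IL-10-Fc against aCSF1R, against 0%, 0.735% and 0.542% of all genes. The unadjusted p was below 0.05 for 0, 0 and 1 of them. The shares of all genes with such a p were 0.271%, 4.26% and 3.56%. The median log2 difference of the members was -0.13 between BF10 and IL-10-Fc (all genes -0.05), 0.04 between BF10 and aCSF1R (all genes 0.06) and 0.18 between IL-10-Fc and aCSF1R (all genes 0.11). The last 2 of these medians were -0.10 and -0.02 with scaling by the median of ratios, so their direction depends on the scaling. Limma was also fitted with sample quality weights, which give less weight to libraries that stand apart, but their estimation stopped before it converged. There 21, 24 and 23 members passed against control (BF10, IL-10-Fc, aCSF1R) and 3 for IL-10-Fc against aCSF1R. Of all 15504 genes, 8967, 9274, 9898 and 1970 passed as well, so the member counts have to be read against these.

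With the library set as a further term in the limma fit, 0 of 34 members passed in any of the 6 comparisons. The shares of all genes passing were then 0.00645% (BF10), 0.0258% (IL-10-Fc) and 2.01% (aCSF1R) in the comparisons with control, 0% for BF10 against IL-10-Fc, 2.82% for BF10 against aCSF1R and 2.13% for IL-10-Fc against aCSF1R. The median member estimate against control was 0.15 with BF10, 0.30 with IL-10-Fc and 0.13 with aCSF1R, and the median margin of the interval was 0.62. Unadjusted limma p-values below 0.05 were found for 0, 2 and 1 members against control and for 0, 3 and 2 members in the other 3 comparisons. The shares of all genes with such a p were 3.75%, 3.7% and 7.53% against control. They were 0.909%, 11.1% and 9.6% in the other 3 comparisons.

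**Figure D2:**
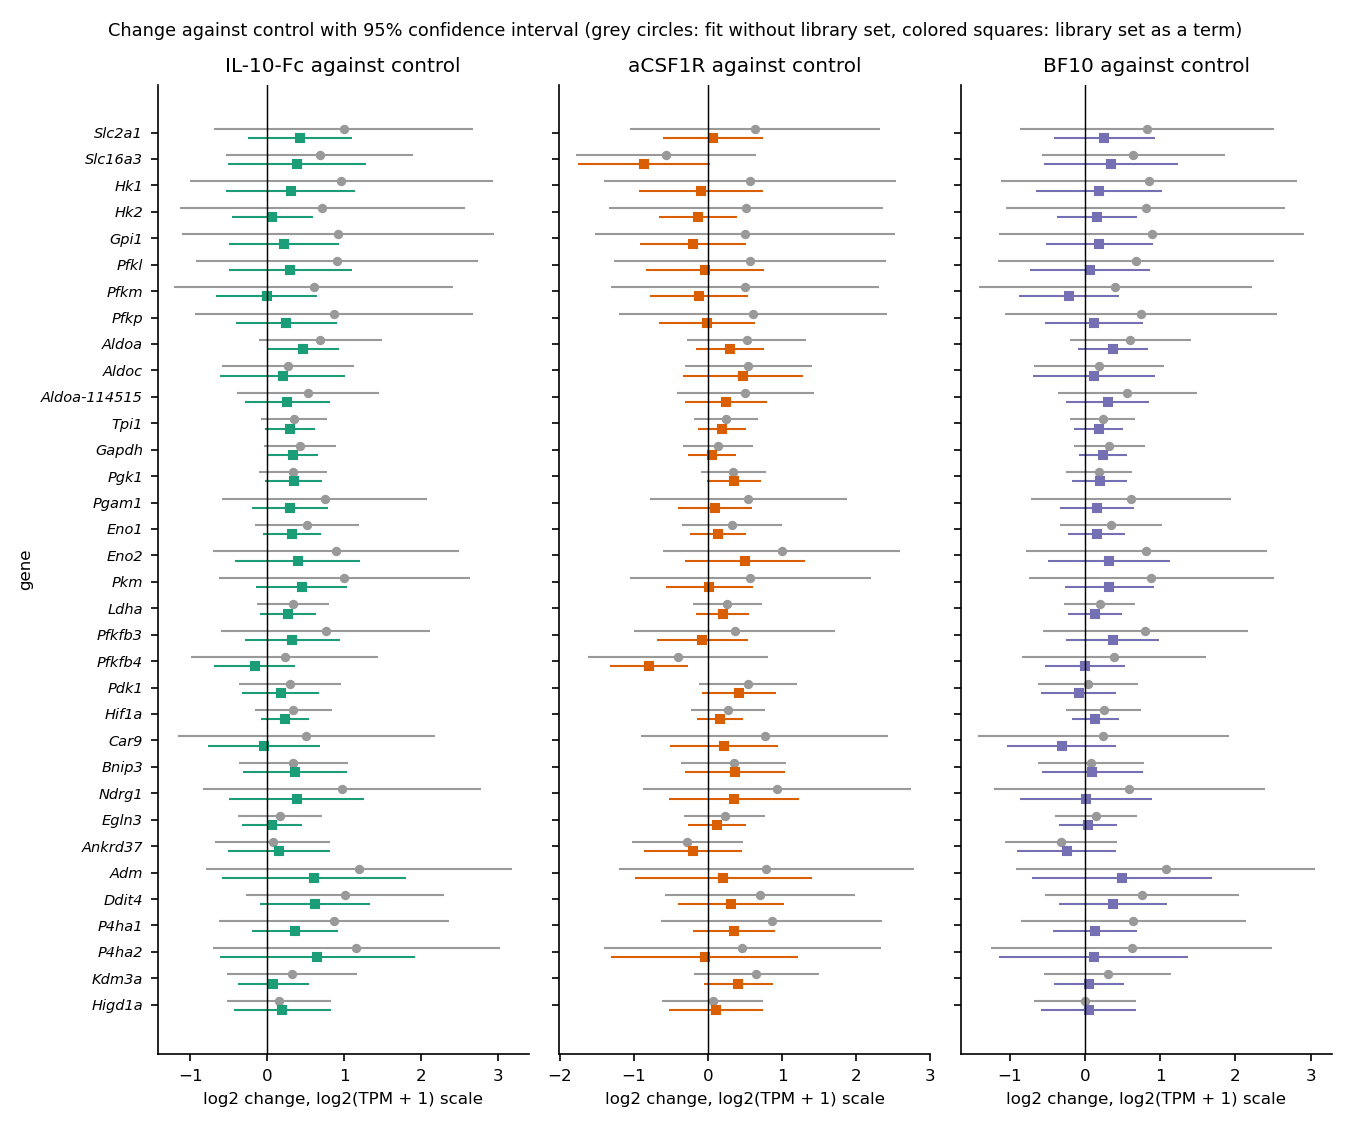
Log2 change of each member against control on the log2(TPM + 1) scale for IL-10-Fc, aCSF1R and BF10, with 95% confidence intervals from limma (n = 3 tumors a group), without (grey circles) and with (colored squares) the library set as a term. Nearly all intervals cover 0, and the squares have the narrower ones.

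The 3 tumors of a group lay wholly above or below those of control for 2 members in BF10 (Ldha and Gapdh) and 7 members in IL-10-Fc (Tpi1, Ldha, Gapdh, Adm, Aldoa, P4ha2 and Slc16a3), in each case above. For all genes tested, groups did not overlap in 3.53% and 6.53% of cases in these comparisons, and 2 and 7 of 34 members are 5.88% and 20.6%. No member was without overlap in aCSF1R against control (all genes 5.28%), BF10 against IL-10-Fc (2.13%), BF10 against aCSF1R (5.91%) or IL-10-Fc against aCSF1R (7.49%). Both comparisons with members that did not overlap share the control tumors. In the following, the values of a group stand in the order of replicates 4, 5 and 7 for control, 2, 4 and 7 for IL-10-Fc, 4, 6 and 8 for aCSF1R and 3, 6 and 7 for BF10. Gapdh, the dehydrogenase of glyceraldehyde 3-phosphate, was at 955, 1035 and 813 TPM in control, 1229, 1323 and 1206 in IL-10-Fc, 1260.3, 1141 and 751 in aCSF1R and 1094, 1134 and 1277 in BF10 tumors. Ldha, the main lactate dehydrogenase chain in tumors, was at 1067, 1043 and 843 TPM in control, 1124, 1302 and 1297 in IL-10-Fc, 1468, 1265 and 875 in aCSF1R and 1097, 1079 and 1194 in BF10 tumors. For both genes all 3 control tumors were below the BF10 and IL-10-Fc tumors, and the Gapdh difference between IL-10-Fc and control was 0.43 on the log2 scale with an adjusted p of 0.738 in limma.

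Transport of glucose in and of lactate out opens and closes the pathway. Slc2a1 (chr4:119108711-119137983, plus strand), which encodes the glucose transporter GLUT1, was at 34.4, 93.8 and 34.8 TPM in control, 121, 127 and 60.0 in IL-10-Fc, 181, 109.5 and 21.4 in aCSF1R and 120.1, 39.1 and 136 in BF10 tumors. Within each group the higher-sum libraries were the lowest, and the groups overlapped. The mean was 54.3 ± 34.2 TPM in control and 104 ± 79.8 TPM in aCSF1R (SD, n = 3), a log2 difference of 0.64 that did not pass. Slc16a3 (chr11:120948480-120960868, plus strand), which encodes MCT4, the transporter that carries lactate out of glycolytic cells, was at 26.8, 28.5 and 20.9 TPM in control, 40.8, 51.0 and 33.3 in IL-10-Fc, 39.0, 18.1 and 6.24 in aCSF1R and 69.6, 26.0 and 34.7 in BF10 tumors. BF10 replicate 3 was the highest and aCSF1R replicates 6 and 8 were the lowest.

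Slc16a3 had the smallest unadjusted p of any member in a treatment comparison of the fit without library set. It was higher by 1.25 ± 0.55 (log2, SE) in IL-10-Fc than in aCSF1R, with an unadjusted limma p of 0.0447 and an adjusted p of 1. The difference between BF10 and aCSF1R was 1.21 ± 0.55 with an unadjusted p of 0.0513 and an adjusted p of 1. The library set as a term could not change the estimate between IL-10-Fc and aCSF1R, since both groups held the same mix of sets. Its adjusted limma p was 0.212 in that fit. There the difference of aCSF1R from control was -0.86 ± 0.40 with an adjusted p of 0.709. The 12 macrophage markers, which all passed the filter, summed to 132 to 938 TPM in aCSF1R tumors against 2310 to 3513 in control, 2204 to 3788 in IL-10-Fc and 2513 to 4167 in BF10. Of these markers 7 were lower in aCSF1R than in control past the threshold and 0 higher. Their part in the Slc16a3 values was not tested.

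The upper part of the pathway traps glucose as its phosphate and cleaves it after a second phosphorylation. Hk1 (chr10:62268855-62379908, minus strand) and Hk2 (chr6:82725025-82774454, minus strand) encode hexokinases, which add the first phosphate. Hk1 was at 12.8, 71.5 and 25.0 TPM in control, 79.4, 71.1 and 32.4 in IL-10-Fc, 92.8, 89.4 and 8.97 in aCSF1R and 69.3, 25.1 and 81.9 in BF10 tumors. Hk2 was at 16.5, 42.2 and 12.9 TPM in control, 59.2, 46.9 and 15.2 in IL-10-Fc, 63.9, 48.7 and 8.53 in aCSF1R and 54.4, 14.0 and 66.5 in BF10 tumors. Gpi1 (chr7:34201330-34230336, minus strand), the isomerase that makes fructose 6-phosphate, was at 116, 530.2 and 163 TPM in control, 564, 561 and 215 in IL-10-Fc, 698, 606 and 66.6 in aCSF1R and 610.2, 174 and 605 in BF10 tumors. For all 3 genes each higher-sum library lay below every lower-sum library, and aCSF1R replicate 8 was the lowest of the 12.

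Phosphofructokinase, the committed step, has a liver, a muscle and a platelet type of subunit. Pfkl (chr10:77986947-78010083, minus strand) was at 30.4, 116 and 45.9 TPM in control, 136, 134 and 60.9 in IL-10-Fc, 183, 155 and 18.7 in aCSF1R and 105, 44.5 and 145 in BF10 tumors. Pfkm (chr15:98092589-98132451, plus strand) was at 4.06, 21.3 and 5.65 TPM in control, 17.9, 15.5 and 7.52 in IL-10-Fc, 21.1, 24.3 and 2.78 in aCSF1R and 14.1, 4.40 and 20.2 in BF10 tumors. Pfkp (chr13:6579768-6648777, minus strand) was at 28.8, 75.1 and 24.1 TPM in control, 95.6, 88.1 and 39.6 in IL-10-Fc, 129, 96.8 and 14.9 in aCSF1R and 98.4, 25.3 and 101 in BF10 tumors. All 3 subunits split by library set without overlap. The ratio of Pfkp to Pfkl ran from 0.525 to 0.948, and Pfkm was the lowest of the 3 in every library.

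Aldolase cleaves fructose 1,6-bisphosphate. Aldoa (chr7:126795234-126800751, minus strand), the highest member of this part of the pathway, was at 634, 1022 and 625 TPM in control, 1211, 1339.7 and 1054 in IL-10-Fc, 1594, 1349 and 562 in aCSF1R and 1122, 949 and 1329 in BF10 tumors. Its second row, an upstream neighbor annotated as protein coding under the same symbol (chr7:126800790-126809108, minus strand), was at 0.404, 2.65 and 0.676 TPM in control, 1.85, 2.38 and 1.67 in IL-10-Fc, 2.16, 3.33 and 0.792 in aCSF1R and 2.22, 1.25 and 2.83 in BF10 tumors, far below the main row. Aldoc, a second aldolase, ran from 23.5 to 84.9 TPM, with BF10 replicate 3 the lowest and BF10 replicate 7 the highest of all libraries. In this part of the pathway the estimates against control were above 0 for 9 of 9 rows in each of the 3 comparisons without library set, with medians of 0.68 with BF10, 0.72 with IL-10-Fc and 0.53 with aCSF1R. With the library set as a term the aCSF1R median was -0.04, with 3 rows above and 6 below 0, and none of these estimates passed.

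The lower part of the pathway earns ATP and makes pyruvate and lactate. Pkm (chr9:59656368-59679375, plus strand), the pyruvate kinase gene and the member with the highest median of all, was at 425, 1732 and 618 TPM in control, 1969, 2019 and 929 in IL-10-Fc, 2123, 1998 and 355 in aCSF1R and 1753, 783 and 2078 in BF10 tumors. Pgam1 (chr19:41911923-41918660, plus strand), a phosphoglycerate mutase, was at 301, 685 and 292 TPM in control, 832, 779 and 443 in IL-10-Fc, 1038, 849.9 and 212 in aCSF1R and 779, 345 and 803 in BF10 tumors. Eno2 (chr6:124760053-124769673, minus strand), the enolase first known from neurons, was at 11.5, 17.6 and 5.60 TPM in control, 24.5, 23.8 and 14.8 in IL-10-Fc, 46.8, 29.6 and 7.35 in aCSF1R and 33.9, 6.66 and 30.2 in BF10 tumors. These 3 genes fell apart by library set without overlap, and aCSF1R replicate 4 was the highest library for each.

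The other enzymes of this part varied less. Tpi1 (triose phosphate isomerase) ran from 537.6 to 864 TPM, Pgk1 (phosphoglycerate kinase) from 609 to 1057 TPM and Eno1 (the main enolase) from 406 to 916 TPM. The range over the 12 libraries was 0.68 to 1.17 on the log2 scale for Tpi1, Pgk1, Ldha, Gapdh and Eno1, against 2.58 for Pkm and 2.86 for Eno2. Estimates against control were above 0 for 8 of 8 members under each treatment, with medians of 0.33 with BF10, 0.47 with IL-10-Fc and 0.33 with aCSF1R and, with the library set as a term, 0.19, 0.33 and 0.16. Processed copies of some of these genes could share reads. Gapdh had 71 other genes with at least 95% identity over at least 50% of its transcript, whose summed level was 223 to 419 TPM. Eno1 had 3, among them Eno1b with a median of 864 TPM against 708 TPM for Eno1 itself, so the level of Eno1 is uncertain. Pgk1 had 2 such copies with 97.7 to 264 TPM, Ldha 2 with 10.4 to 17.1 TPM and Pkm 1 with 1.74 to 16.0 TPM.

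Another group sets the flux. Pfkfb3 (chr2:11471433-11554077, minus strand) and Pfkfb4 (chr9:108991778-109032228, plus strand) encode bifunctional enzymes that make and remove fructose 2,6-bisphosphate, the activator of phosphofructokinase. Pfkfb3 was at 8.12, 13.0 and 7.07 TPM in control, 20.2, 20.6 and 9.99 in IL-10-Fc, 22.8, 18.3 and 3.73 in aCSF1R and 25.6, 8.42 and 20.9 in BF10 tumors. Pfkfb4 was at 7.87, 16.0 and 8.57 TPM in control, 15.3, 16.0 and 7.34 in IL-10-Fc, 12.8, 10.2 and 3.03 in aCSF1R and 24.4, 7.74 and 13.5 in BF10 tumors. Pdk1 (chr2:71873224-71903858, plus strand) encodes the kinase that switches off pyruvate dehydrogenase and so keeps pyruvate from the citric acid cycle. It was at 26.7, 29.6 and 18.4 TPM in control and 28.8, 29.4 and 33.1 TPM in IL-10-Fc tumors. In aCSF1R tumors Pdk1 was at 44.2, 41.9 and 25.2 TPM, and in BF10 tumors at 23.7, 19.7 and 34.1 TPM. BF10 replicate 3 was the highest library for Pfkfb3 and Pfkfb4, while aCSF1R replicates 4 and 6 were the highest for Pdk1.

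Pfkfb4 had the smallest unadjusted p of the members once the library set was a term. It was lower in aCSF1R than in control by a log2 estimate of -0.79 ± 0.24 (limma adjusted p = 0.203) and higher in BF10 than in aCSF1R by 0.79 ± 0.23 (adjusted p = 0.142). Pdk1 was lower in BF10 than in aCSF1R by an estimate of -0.50 ± 0.22 in that fit (adjusted p = 0.428). None of these passed. Neutrophil markers (8 of 8 passed the filter) summed to 17650 TPM in BF10 replicate 3, whose Pfkfb3 and Pfkfb4 were the highest, and to 516 to 3371 TPM in the other 11 libraries. The next highest sum, 3371 TPM, was that of aCSF1R replicate 8. This library had the lowest Pfkfb3 (3.73 TPM) and Pfkfb4 (3.03 TPM) of all. Without BF10 replicate 3 the median member difference between BF10 and control was 0.40. The part of these cells in the Pfkfb3 and Pfkfb4 values was not tested.

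The hypoxia response genes reach beyond glycolysis. Ndrg1 (chr15:66929318-66969640, minus strand), a stress and differentiation gene widely used as a hypoxia marker and the highest of this group by its median, was at 108, 215 and 70.9 TPM in control, 281, 304 and 147 in IL-10-Fc, 615, 324 and 58.0 in aCSF1R and 217, 77.2 and 338 in BF10 tumors. Car9 (chr4:43506966-43513729, plus strand), a carbonic anhydrase at the cell surface that controls pH, was at 31.3, 96.1 and 45.8 TPM in control, 119, 82.8 and 41.2 in IL-10-Fc, 174, 149.9 and 26.4 in aCSF1R and 62.9, 30.6 and 119 in BF10 tumors. Adm (chr7:110627661-110629820, plus strand), the vessel-dilating peptide adrenomedullin, was at 5.46, 9.45 and 2.44 TPM in control, 12.9, 17.6 and 9.76 in IL-10-Fc, 30.4, 13.9 and 1.56 in aCSF1R and 30.96, 3.75 and 13.2 in BF10 tumors. Adm had the widest range of the 34 members (3.64 on the log2 scale), and aCSF1R held both extremes for Ndrg1 and Car9. Estimates for these genes against control ranged up to 1.20 (Adm in IL-10-Fc), and none passed.

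Prolyl 4-hydroxylases prepare collagen for folding and are classical hypoxia targets. P4ha1 (chr10:59323296-59373304, plus strand) was at 36.9, 103 and 32.0 TPM in control, 114, 106 and 63.5 in IL-10-Fc, 173, 136 and 31.5 in aCSF1R and 106, 38.5 and 116 in BF10 tumors. P4ha2 (chr11:54100095-54131665, plus strand) was at 12.3, 23.0 and 6.91 TPM in control, 26.3, 39.8 and 24.3 in IL-10-Fc, 54.0, 25.6 and 3.53 in aCSF1R and 48.6, 10.1 and 15.7 in BF10 tumors. P4ha1 split by library set and P4ha2 did not, with BF10 replicate 7 below IL-10-Fc replicate 7. Fibroblast markers, 8 of 8 of which passed the filter, summed to 9277 TPM in BF10 replicate 3, 5981 in IL-10-Fc replicate 4 and 5401 in aCSF1R replicate 4, the 3 libraries with the highest P4ha2, and to 953 to 4030 TPM in the others. Their part in the P4ha2 values was not tested.

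Ddit4 (chr10:59949669-59951834, minus strand), which restrains the growth kinase mTORC1 under stress, was at 50.2, 122 and 60.4 TPM in control, 171, 195 and 93.6 in IL-10-Fc, 218, 172 and 42.8 in aCSF1R and 103, 99.8 and 178 in BF10 tumors. Kdm3a (chr6:71588972-71632990, minus strand), a histone demethylase gene induced by hypoxia, was at 33.6, 53.9 and 26.5 TPM in control, 47.3, 54.0 and 37.6 in IL-10-Fc, 74.5, 76.7 and 33.7 in aCSF1R and 40.6, 34.9 and 64.1 in BF10 tumors. For both, higher-sum libraries lay below all lower-sum libraries. Hif1a itself, whose protein is regulated mainly after translation, ran from 59.9 to 107 TPM and was highest in BF10 replicate 3. Egln3, an oxygen-sensing hydroxylase that marks hypoxia-inducible factors for removal, ran from 53.6 to 89.2 TPM.

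On the TPM scale, Bnip3, Ankrd37 and Higd1a did not follow the library sets. Bnip3 (chr7:138890836-138909519, minus strand), which acts in the removal of mitochondria, was at 214, 101 and 96.0 TPM in control, 138, 164 and 188 in IL-10-Fc, 222, 142 and 135 in aCSF1R and 132, 122 and 151 in BF10 tumors. Ankrd37 (chr8:45996902-46005707, minus strand), a small ankyrin repeat gene, was at 52.3, 23.8 and 24.6 TPM in control, 26.1, 37.7 and 36.4 in IL-10-Fc, 34.3, 22.1 and 22.4 in aCSF1R and 21.6, 30.8 and 23.1 in BF10 tumors. Higd1a (chr9:121848563-121858362, minus strand), a mitochondrial protein gene, was at 179, 85.4 and 89.1 TPM in control, 109.9, 127 and 136 in IL-10-Fc, 162, 96.1 and 101 in aCSF1R and 123, 113 and 98.8 in BF10 tumors. Control replicate 4, a higher-sum library, was the highest of all for Ankrd37 and Higd1a and second to aCSF1R replicate 4 for Bnip3. Over the 12 hypoxia response genes the median estimate against control was 0.27 in BF10 (11 of 12 above 0), 0.43 in IL-10-Fc (12 of 12) and 0.56 in aCSF1R (11 of 12), and with the library set as a term 0.08, 0.30 and 0.21.

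**Figure D3:**
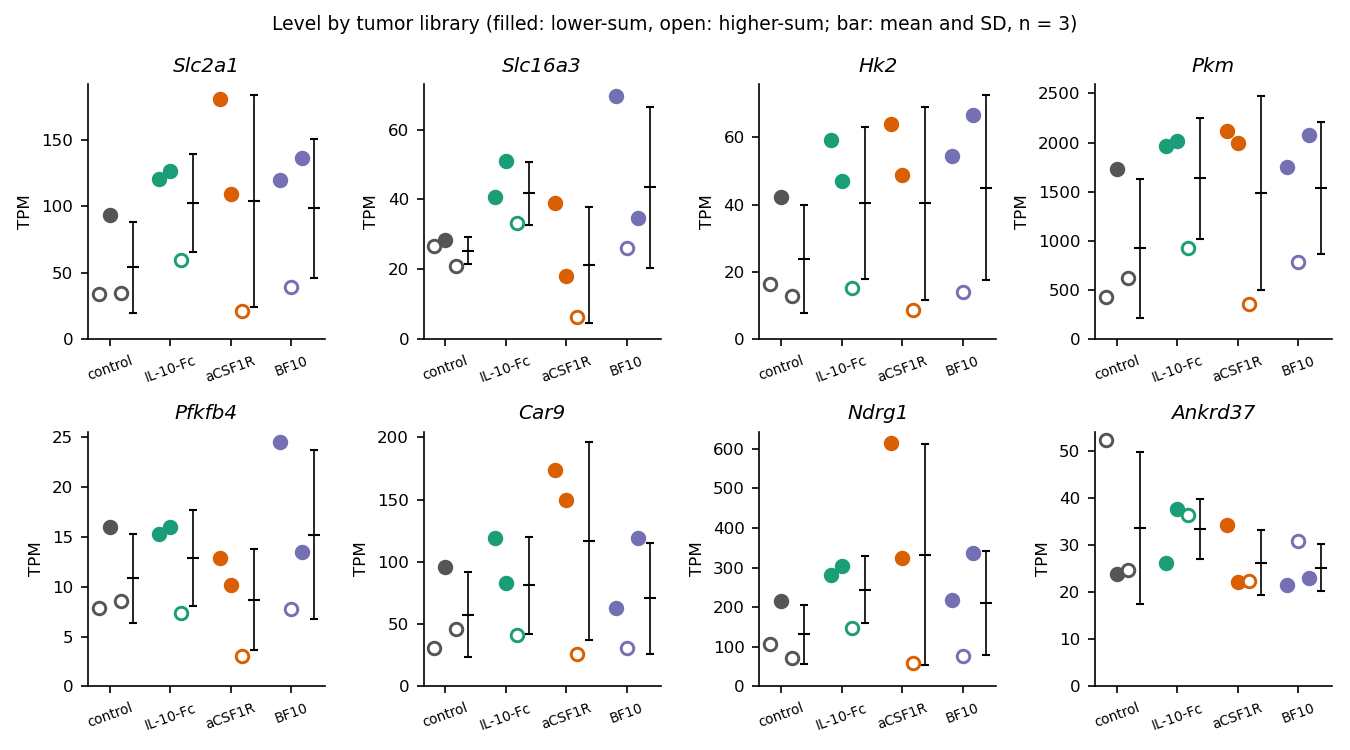
TPM of 8 members in each tumor library by treatment, with filled points for lower-sum and open points for higher-sum libraries and black bars for the group mean and SD (n = 3). Open points lie lowest in every group for Slc2a1, Hk2, Pkm, Pfkfb4, Car9 and Ndrg1, and not for Ankrd37.

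The library sets, compared with the treatment groups held in the limma fit, separated many members. On the TPM scale 22 of 34 members were lower and 0 higher in the higher-sum libraries past the threshold, against 54% lower and 5.23% higher of all genes, and the count of 22 has to be read against that share. The median log2 difference was -1.16 for the members and -0.68 for all genes. By role, 2 of 2 transporters, 8 of 9 rows from hexokinase to aldolase, 3 of 8 from triose phosphate to lactate, 2 of 3 flux regulators and 7 of 12 hypoxia response genes were lower. The largest differences were those of Gpi1 (-2.10 ± 0.23, log2, SE), Hk1 (-1.97 ± 0.28) and Hk2 (-1.95 ± 0.17), whereas Pgk1 (0.04 ± 0.12), Bnip3 (0.06 ± 0.22), Higd1a (0.13 ± 0.21) and Ankrd37 (0.23 ± 0.22) stayed near 0. Every lower-sum library was above every higher-sum library for 19 members (all genes 48.8%), the reverse held for 0 (all genes 6.23%), and 15 overlapped.

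The scaling decided the direction for part of them. The sets were defined from the sum that the TPM scale divides by, and with scaling by the median of ratios 13 members were lower and 7 higher, against 19.7% lower and 23.4% higher of all genes. The median difference of the members was then -0.34. The 6 rows of hexokinase, isomerase and phosphofructokinase (Hk1, Hk2, Gpi1, Pfkl, Pfkm, Pfkp) were lower under both scalings, with -0.96 to -1.22 under the second. Tpi1 (0.72), Gapdh (0.62), Pgk1 (0.92), Ldha (0.69), Bnip3 (0.93), Ankrd37 (1.08) and Higd1a (1.00) were higher under the second scaling and did not pass under the first. Aldoa (-0.68) and Kdm3a (-0.73), lower past the threshold on the TPM scale, were at 0.20 and 0.13 under the second scaling and did not pass there. The second scaling divides all genes of a library by the same factor, so it shifts the differences by similar amounts and largely keeps their order. That the 6 rows from hexokinase to phosphofructokinase had more negative differences than Tpi1, Pgk1 and Ldha under both is therefore 1 observation.

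**Figure D4:**
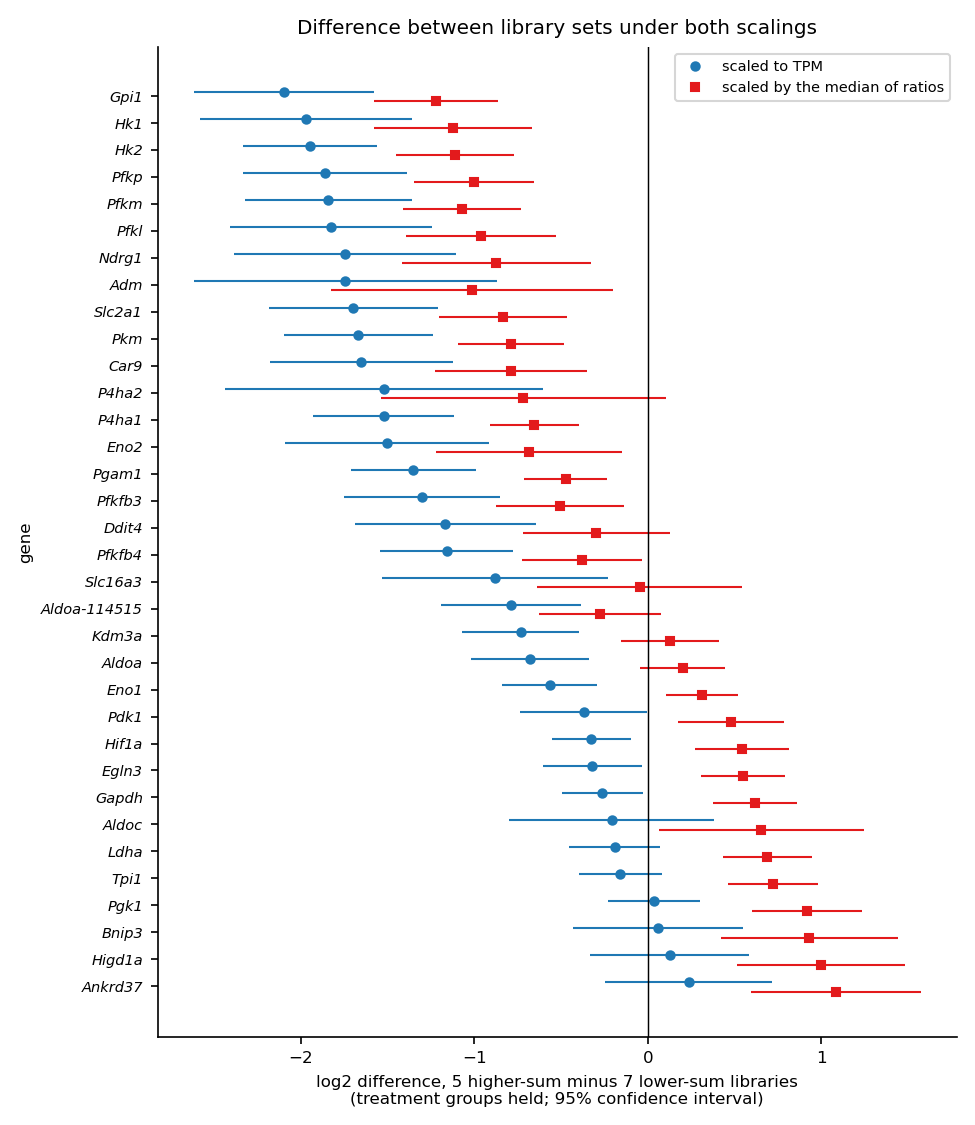
Log2 difference between the 5 higher-sum and 7 lower-sum libraries for each member with 95% confidence intervals from limma, on the TPM scale (blue circles) and with scaling by the median of ratios (red squares). Gpi1, Hk1 and Hk2 lie at the low end and Pgk1, Bnip3, Higd1a and Ankrd37 at the high end under both scalings. The second scaling shifts the genes by similar amounts, so it largely keeps their order.

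On the TPM scale, whose divisor defines the sets, marker sums differed in how far they followed the sets. They were not taken with scaling by the median of ratios, so a split here holds for the TPM scale only. The 10 carcinoma epithelium markers summed to 1952 to 2678 TPM in the lower-sum and 775 to 1758 TPM in the higher-sum libraries, without overlap. The 8 endothelial markers summed to 85.2 to 193 TPM in the lower-sum and 41.8 to 91.5 TPM in the higher-sum libraries, a shift with some overlap, and the 8 proliferation markers to 876 to 1047 and 719 to 1292 TPM, which overlapped. The sums of the other marker lists (macrophage, neutrophil, skeletal muscle, erythrocyte, fibroblast, adipocyte, and T and NK cell) overlapped between the sets as well. The 18 members with a TPM difference below -1 had a median length of the longest coding transcript of 2886.5 bases, the 4 members between that and a 1.5-fold difference one of 2942 bases, and the 12 members with a smaller difference one of 1926 bases. The members with the smaller difference thus had the shortest median, and the other medians were close to each other. Across the 34 members Spearman's rho of the difference was -0.424 with transcript length and -0.268 with its GC content, as a description over genes that share the same 12 libraries. The part of tissue makeup or RNA quality in these differences was not tested.

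Within the 7 lower-sum libraries alone, which leave 1 control tumor that is assumed to vary like the others, 0 of 34 members passed in limma in any of the 6 comparisons. Estimates for aCSF1R lay above control replicate 5 for 32 of 34 members (median 0.50, all genes 0.02). Among these members were Eno2 (1.04) and P4ha1 (0.57). Against aCSF1R, 30 of 34 members were lower in BF10 (median -0.24, all genes -0.09) and 30 of 34 in IL-10-Fc (median -0.21, all genes -0.09), where the medians over all 12 libraries were 0.04 and 0.18. Within these 7 libraries aCSF1R replicate 4 was the highest for 21 members, control replicate 5 the lowest for 18 and BF10 replicate 3 the lowest for 10. Leaving out aCSF1R replicate 8 moved the median of aCSF1R against control from 0.51 to 1.06, and leaving out aCSF1R replicate 4 moved it to 0.11.

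Ratios between related genes of the same library do not depend on its scale. Over 8 ratios and 6 comparisons the two-sided exact permutation test, which with 3 against 3 tumors cannot go below 0.1, gave its smallest p of 0.1 in 4 of 48 tests, and the smallest adjusted p was 1. Of these 4, 3 were the ratio of Pfkfb4 to Pfkfb3. It was 0.970, 1.23 and 1.21 in control, 0.758, 0.779 and 0.735 in IL-10-Fc, 0.563, 0.554 and 0.811 in aCSF1R and 0.955, 0.920 and 0.644 in BF10. All 3 control tumors thus lay above the 9 treated tumors, with log2 differences of -0.58, -0.84 and -0.45 for IL-10-Fc, aCSF1R and BF10, which share these controls. The other one was the ratio of Aldoc to Aldoa in IL-10-Fc against control (-0.41). The ratio of Hk2 to Hk1 ran from 0.471 to 1.29, that of Eno2 to Eno1 from 0.0114 to 0.0510 and that of Pfkm to Pfkl from 0.0988 to 0.183, with overlap of all groups. A ratio can still follow the library sets. That of Eno2 to Eno1 was 0.0248 to 0.0510 in the lower-sum and 0.0114 to 0.0242 in the higher-sum libraries, without overlap. The level of Eno1 is uncertain because of its copies, as given above.

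**Figure D5:**
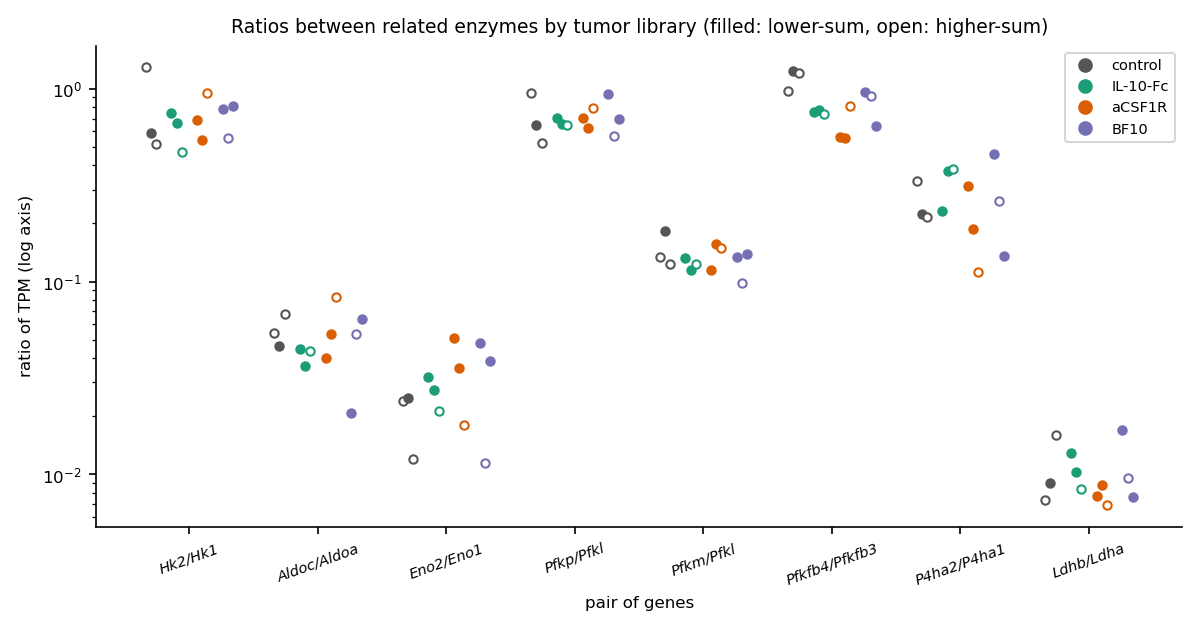
Ratio of the TPM values of 2 related genes (log axis) for 8 pairs in each tumor library, colored by treatment, with filled points for lower-sum and open points for higher-sum libraries. For Pfkfb4 to Pfkfb3 the 3 control points lie between 0.970 and 1.23, above the treated points.

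The other genes of these pathways were read from lists written for the comparison. In the limma fit without library set 0 of 8 pentose phosphate genes, 0 of 23 genes of pyruvate dehydrogenase and the citric acid cycle, 0 of 11 tested regulators of hypoxia-inducible factors and 0 of 5 tested gluconeogenesis genes passed in any of the 6 comparisons. The same held with the library set as a term. Of 18 tested other glycolysis genes (24 listed) 1 passed for BF10 against aCSF1R, and of 36 tested other hypoxia targets (38 listed, 37 in the table) 1 passed for aCSF1R against control and 1 for BF10 against aCSF1R. Against control, the median estimates without library set were 0.49 with BF10, 0.46 with IL-10-Fc and 0.12 with aCSF1R for other glycolysis and 0.36, 0.55 and 0.35 for other hypoxia targets.

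Ppfia4, a liprin gene listed among hypoxia targets, was at 3.54, 8.37 and 6.67 TPM in control, 8.26, 6.00 and 3.64 in IL-10-Fc, 1.22, 0.607 and 0.076 in aCSF1R and 6.55, 6.16 and 10.1 in BF10 tumors. It fell in aCSF1R against control by 2.14 on the log2 scale (limma adjusted p = 0.0472) and was higher in BF10 than in aCSF1R by 2.43 ± 0.40 (adjusted p = 0.0181). Slc16a7, the monocarboxylate transporter MCT2, was at 1.92, 1.05 and 1.09 TPM in control, 2.17, 2.19 and 2.18 in IL-10-Fc, 0.423, 0.771 and 0.0434 in aCSF1R and 3.82, 2.47 and 2.72 in BF10 tumors and was higher in BF10 than in aCSF1R by 1.52 ± 0.26 (adjusted p = 0.0235). For both genes each aCSF1R tumor lay below every tumor of the other groups.

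Hk3, the hexokinase gene of myeloid cells, was at 7.83, 14.5 and 8.30 TPM in control, 22.9, 25.1 and 11.7 in IL-10-Fc, 4.29, 3.61 and 1.302 in aCSF1R and 51.5, 9.95 and 28.7 in BF10 tumors. It did not pass without the library set. With the set as a term it was lower in aCSF1R than in control (-1.89 ± 0.27, limma adjusted p = 0.00278) and higher in BF10 (2.75 ± 0.26, adjusted p = 0.000137) and IL-10-Fc (2.38 ± 0.26, adjusted p = 0.000498) than in aCSF1R. Ppfia4 and Slc16a7 passed for IL-10-Fc against aCSF1R in that fit as well (2.10 ± 0.25, adjusted p = 0.00106, and 1.20 ± 0.23, adjusted p = 0.0201). These 3 genes thus were lowest in aCSF1R, the group in which the macrophage marker sums given above were lowest. Slc16a7 was higher in every IL-10-Fc and BF10 tumor than in the control tumors, whereas the macrophage marker sums of these groups overlapped. Ppfia4 and Hk3 in IL-10-Fc and BF10 tumors overlapped with control. Hk3 was highest in BF10 replicate 3, the library with the highest neutrophil marker sum. It was second in BF10 replicate 7, where that sum was 922 TPM. Whether macrophages or neutrophils carry these genes here was not tested. Hk1 and Hk2, the hexokinases among the members, did not pass in any treatment comparison of either fit.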

How the data were processed

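The 12 tumor libraries were stranded mRNA libraries sequenced on an Illumina NextSeq. The submitters' processing notes name STAR 2.7.5a, RSEM 1.3.3 and DESeq2 1.28.0 with mm10 and GRCm38, without roles. The authors deposited FPKM values (scaled by transcript length and mapped fragments) for 55401 genes in 1 table, and 4 tables of their own DESeq2 comparisons (fold changes and p-values), which were not used. FPKM values were divided by the library sum to give TPM. Genes that reached a TPM of 1 in 3 or more of the 12 libraries were fitted on log2(TPM + 1), a scale that understates changes of low genes, with limma 3.58.1 (eBayes with trend, R 4.3.3) as 1 mean per group with 8 residual degrees of freedom. Whether tumors of a group were handled separately beyond the sample titles is not stated, so p-values measure the spread between these samples.

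Library sets were divided at an FPKM sum of 700000. Positions and transcripts are from GENCODE release M21 (GRCm38), the build the submitters name, and copies were sought with blastn 2.17.0. Whether counting used the strand is not given in the sources used here. The members, lists, sets and tests were chosen with earlier results of these data known. Values of every library are given for members that passed on the TPM scale in the unweighted fits over all libraries without or with the library set (the set difference included), the 8 of widest range and the highest of each role, and Gapdh, Ldha, Bnip3, Ankrd37 and Higd1a were added after their values were seen. The script was tested on simulated data. Replicate numbers shared between groups are not stated to pair the tumors, and none was assumed to. Deviations from the group means correlated from -0.663 to 0.417 over 7 pairs of libraries with the same number. Pairs within a library set were positive and pairs across the sets negative. The set was not removed there, so these correlations cannot decide whether tumors were paired.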

Additional observations from a re-analysis of the deposited data

How the results depend on the processing

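The counts of members that passed in a treatment comparison were 0 under a pseudocount of 0.1, FPKM without rescaling, scaling by the median of ratios, no filter, a TPM minimum of 5, adjusted p alone, 2 groups compared alone, the library set as a term and each library left out. Sample quality weights, whose estimation stopped before it converged, gave 21 (BF10), 24 (IL-10-Fc) and 23 (aCSF1R) against control, 3 for IL-10-Fc against aCSF1R and 0 for the other 2 comparisons, and the cause was not tested. Between library sets, Aldoa (-0.68) and Kdm3a (-0.73) changed direction to 0.20 and 0.13 with scaling by the median of ratios, which by construction moves the median of all genes to -0.02 from -0.68.

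In the fit with a replicate block (consensus correlation -0.366) 0 members passed in each comparison and 22 between library sets, as in the fit without pairing. The median member estimates there were 0.22 with BF10, 0.58 with IL-10-Fc and 0.40 with aCSF1R against control.

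With each library left out in turn, the median member estimate ran from 0.25 to 0.91 with BF10, 0.42 to 0.95 with IL-10-Fc and 0.11 to 1.06 with aCSF1R against control, from -0.33 to 0.22 for BF10 against IL-10-Fc, from -0.55 to 0.34 for BF10 against aCSF1R and from -0.41 to 0.49 for IL-10-Fc against aCSF1R. The count of members that differed between library sets was 20 to 23 then, and 19 to 26 over the other settings. Signs of estimates that did not pass changed for 49 of 204 under scaling by the median of ratios and for 61 of 204 within the 7 lower-sum libraries, an alternative added after the data were seen, as was the library set together with scaling by the median of ratios (41 of 204). FPKM values give no counts, so counting error could not be computed.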
